A study of Homo sapiens with 15 samples.

Results

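Caspases are the proteases that carry out apoptosis, and 8 genes of this machinery were followed in UKE1 cells, chosen by symbol: CASP8, CASP10, CFLAR, FADD, APAF1, CASP9, CASP2 and CASP6. All 8 were found among the 58735 genes of the count table, and all 8 passed the filter on low counts that 16146 genes passed. UKE1 is an established human leukaemia line that arose from a myeloproliferative neoplasm, and here it stands as a single line, labelled WT. That label is not read here as a statement on any single gene, JAK2 included. RNA-seq was done on 15 libraries in 5 groups of 3: untreated cells; cells given the inflammatory cytokine TNF-α; and TNF-α stimulated cells then given MCL, ruxolitinib, or MCL together with ruxolitinib. MCL is read here as micheliolide, a sesquiterpene lactone named in the series title, and ruxolitinib inhibits the kinases JAK1 and JAK2. Every sample carries the time label 3 h after treatment. The sources used here give no dose, no vehicle, no duration for the cytokine and no word on whether replicates were cultured separately. The p-values therefore measure library-to-library spread only, and that spread may be technical.

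Apoptosis has a receptor-driven and a mitochondrial arm. When TNF or a related ligand engages its receptor, the adaptor FADD gathers procaspase-8 and procaspase-10, which activate each other by proximity, while the CFLAR product cFLIP, a relative of caspase-8 without protease activity, enters the same complex and sets how much caspase activity results. In the mitochondrial arm, cytochrome c released into the cytosol lets APAF1 assemble into the apoptosome, which activates caspase-9. Caspase-2 is an initiator best known from the PIDD1 and CRADD complex, and caspase-6 is an executioner that cleaves lamin A. TNF-α is known to induce CFLAR through NF-kB, which normally protects cells from the cytokine's own death signal.

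CFLAR, CASP10 and CASP8 lie side by side on the plus strand of chromosome 2 (hg38), in a stretch of 171608 bases. CFLAR (ENSG00000003402) spans chr2:201116104-201176687, CASP10 (ENSG00000003400) starts 6193 bases further at chr2:201182881-201229406, and CASP8 (ENSG00000064012) follows after a gap of 4036 bases at chr2:201233443-201287711. FADD (ENSG00000168040) is at chr11:70203163-70207390, APAF1 (ENSG00000120868) at chr12:98645141-98735433, and CASP2 (ENSG00000106144) at chr7:143288215-143307696, all on the plus strand. CASP9 (ENSG00000132906) at chr1:15490832-15526534 and CASP6 (ENSG00000138794) at chr4:109688622-109703583 are on the minus strand. GENCODE 29 lists 25 transcripts of CFLAR, 20 of CASP8 and 1 of FADD. Counts are per gene, so the long and short forms of cFLIP cannot be told apart. Reads of the antisense gene CFLAR-AS1, which shares 777 exonic bases with CFLAR, cannot be separated without strand information. It held 244 counts over all libraries against 18018 for CFLAR. These counts do not show how reads over the shared bases were assigned.

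The upstream sequences of the member that varied most between groups, FADD, and of the member that varied least, CASP8, are shown from the RefSeq promoter table (GRCh38.p14), cut to the bases before the transcription start that lie in no annotated exon. They cover chr11:70203046-70203162 and chr2:201233213-201233442 on the plus strand. Capitals mark a match to the STAT-type element TTCNNNGAA.
FADD: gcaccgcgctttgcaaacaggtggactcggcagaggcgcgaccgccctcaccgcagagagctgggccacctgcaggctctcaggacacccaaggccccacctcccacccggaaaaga
CASP8: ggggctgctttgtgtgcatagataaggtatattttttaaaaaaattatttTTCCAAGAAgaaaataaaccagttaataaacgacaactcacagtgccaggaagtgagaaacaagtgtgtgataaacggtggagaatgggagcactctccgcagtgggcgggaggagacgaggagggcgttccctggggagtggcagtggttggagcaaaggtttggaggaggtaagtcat
The table held promoters for 7 of the 8 genes, the exception being CASP10. In the 250 bases upstream of each start, both strands were searched for the NF-kB consensus, TTCNNNGAA, the ISRE-like element, the NRF2-type TGACNNNGC, the heat shock element and TGACGTCA. CASP8 held the TTCNNNGAA match, which occurs in 6.57% of all promoters of this length, and CFLAR held TGACCACGC, a match to TGACNNNGC, which occurs in 10.9%. The NF-kB consensus, present in 6.88% of all promoters, was not among the letters of these 7 windows. Each window belongs to the start listed in that table, and other starts of these genes were not searched. Annotated exons held 230 of the 250 bases of the CASP9 window, which lies within that gene, and 223 of the APAF1 window. They held 138 bases in CASP6, 136 in CASP2, 133 in FADD and 20 in CASP8. The CFLAR window also lies within its gene, and 225 of its 250 bases are in annotated exons, its TGACCACGC match included. The search therefore cannot decide whether CFLAR has an NF-kB site outside this window.

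Library totals ranged from 15476399 to 18035604 counts. A member had between 136 and 1767 counts in a library, and its coefficient of variation within a group ranged from 1.12% to 12.9%. Levels are given as CPM, counts scaled to the library total and its TMM factor. All 10 haematopoietic markers examined were expressed, CD34 highest at a median of 1250 CPM, and the epithelial markers EPCAM and CDH1 had 0 counts; of 11 markers of other cell types, the endothelial genes CDH5 (median 181 CPM) and VWF (36.5 CPM), the keratins KRT8 (47.0 CPM) and KRT18 (70.8 CPM) and the T-cell gene CD3E (6.15 CPM) had reads in every library. The haematopoietic markers summed to between 3591 and 3619 CPM in untreated libraries, 3544 to 3589 after TNF-α, 2885 to 2912 after MCL, 3529 to 3539 after ruxolitinib and 2144 to 2203 after the pair, and the markers of other cell types to 454.2 to 466.3, 379.6 to 381.7, 315.1 to 321.8, 332.7 to 357.4 and 312.3 to 326.8 CPM in the same order. All 3 NF-kB targets used to check the stimulation (NFKBIA, TNFAIP3 and ICAM1) rose with TNF-α.

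Per kilobase of gene length, which allows a comparison between genes, untreated cells had most transcript of CASP2 (12.3 ± 0.26 CPM per kb, SD, n = 3), followed by FADD (11.2 ± 0.356) and CASP8 (7.46 ± 0.51). CASP6 (6.09 ± 0.77) and APAF1 (5.62 ± 0.264) came next. The lowest were CASP9 (2.64 ± 0.274), CFLAR (2.3 ± 0.099) and CASP10 (2.03 ± 0.22), so the inhibitor CFLAR was below CASP8 on this scale. The length used joins the exons of every annotated transcript, which is 22529 bases for CFLAR against 1841 for FADD, and lowers the value of genes with many alternative exons.

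TNF-α raised 3 of the 8 genes (CFLAR, CASP10 and APAF1) and lowered 2 (FADD and CASP6), and 3 did not pass, by edgeR's quasi-likelihood test at an adjusted p under 0.05. Of all tested genes 26.6% passed in that comparison. MCL changed 5 against TNF-α alone, with CASP9 higher and CFLAR, CASP10, APAF1 and CASP8 lower, beside 26.0% of all genes. Ruxolitinib changed 2, CASP6 upward and CASP10 downward, beside 15.7% of all genes (5.15% higher and 10.6% lower). Both drugs together changed 7, with CASP9, CASP6 and APAF1 higher and FADD, CASP10, CASP2 and CFLAR lower, in a comparison where 54.8% of all genes passed. The median log2 change of the 8 was 0.04 with TNF-α, -0.14 for MCL, 0.00 for ruxolitinib and -0.17 for the pair, where the medians over all genes lay between -0.03 and 0.00, and each of these comparisons had members higher and members lower. The 3 drug comparisons share the TNF-α libraries. The 8 genes were chosen with earlier results of these data known. The shares over all genes are therefore background and not a test of the set. In bulk RNA, fewer cells of a kind and less transcript per cell cannot be told apart.

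**Figure D1:**
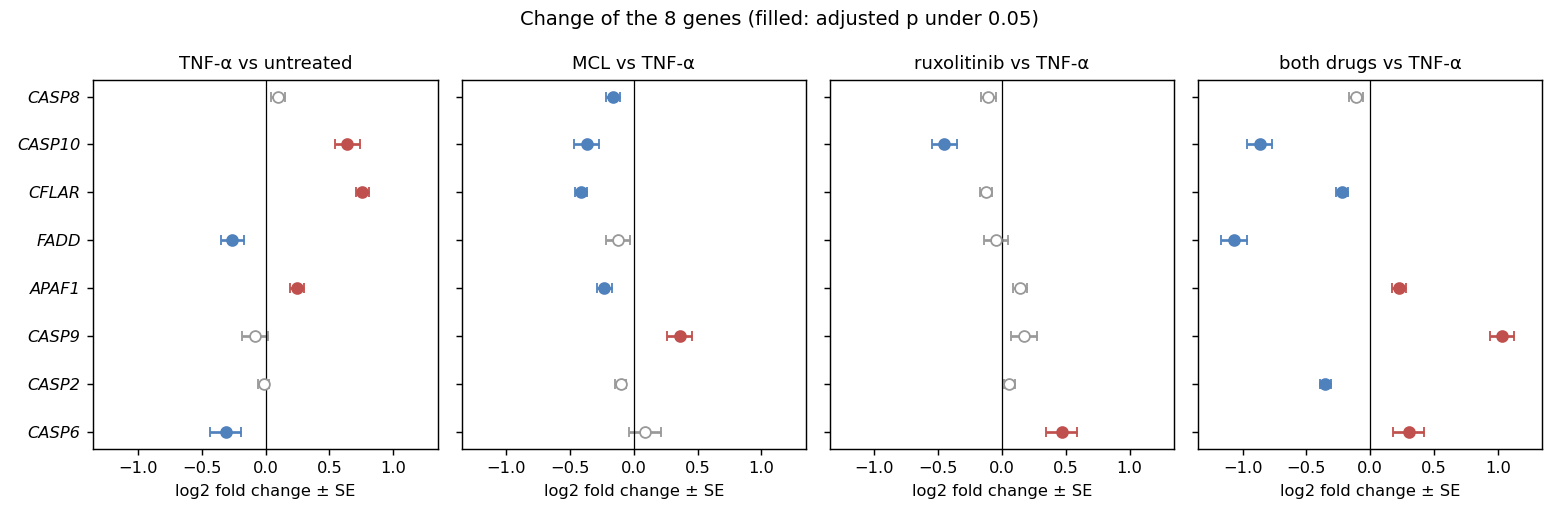
Log2 fold change with its standard error (x axis) of each gene (y axis) in 4 comparisons. Filled points passed at an adjusted p under 0.05, red for higher and blue for lower, and open grey points did not pass. CFLAR and CASP10 are the 2 highest with TNF-α, and CASP9 at 1.03 and FADD at -1.07 lie farthest from 0 with both drugs.

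Transcripts of CFLAR, the caspase-8 inhibitor, were at 49.5, 52.0 and 53.9 CPM in the untreated libraries and at 90.1, 90.0 and 82.7 CPM with TNF-α. The lowest TNF-α library was well above the highest untreated library, and the log2 change was 0.76 ± 0.05 (SE, adjusted p = 8.48e-20), a 1.69-fold rise. With MCL the values were 68.0, 66.1 and 63.0 CPM, with ruxolitinib 82.2, 82.1 and 76.6 CPM, and with both drugs 75.3, 76.6 and 73.2 CPM. All 3 drug groups lay between untreated cells and TNF-α alone, without overlapping either. MCL lowered CFLAR by 0.41 on the log2 scale (SE 0.05, adjusted p = 5.18e-10), and both drugs lowered it by 0.22 (adjusted p = 8.4e-05). The change with ruxolitinib was -0.13 (adjusted p = 0.0707) and did not pass, although it did without TNF-α replicate 3 (-0.16, adjusted p = 0.0392). MCL alone thus left less CFLAR transcript than the drug pair (65.7 ± 2.48 against 75.0 ± 1.76 CPM, adjusted p = 0.00129). Against untreated cells CFLAR was higher in each drug group, by 0.34 with MCL (adjusted p = 1.85e-07), 0.63 with ruxolitinib (adjusted p = 1.79e-16) and 0.53 with both (adjusted p = 5e-14).

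CASP10, the initiator caspase whose gene follows CFLAR on the chromosome, rose with TNF-α from 16.6, 13.5 and 16.1 CPM to 23.7, 25.6 and 22.6 CPM. The groups did not overlap, and the log2 change was 0.64 ± 0.10 (adjusted p = 2.45e-07). Each drug lowered CASP10 again. The values were 16.04, 20.2 and 19.5 CPM with MCL (log2 change -0.37 ± 0.10, adjusted p = 0.00229) and 16.6, 16.6 and 19.4 CPM with ruxolitinib (-0.45 ± 0.10, adjusted p = 0.000326). Both drug groups lay below TNF-α without overlap, and the difference between them did not pass (0.08, adjusted p = 0.602, 95% interval -0.12 to 0.28). With both drugs CASP10 fell to 13.8, 14.2 and 11.4 CPM (-0.87 ± 0.10 against TNF-α, adjusted p = 2.63e-11). This level overlapped that of untreated cells (-0.23, adjusted p = 0.0559), a difference that passed without untreated replicate 2 (-0.32, adjusted p = 0.0146) or combination replicate 2 (-0.29, adjusted p = 0.0337). The MCL call was lost without MCL replicate 1 (-0.27, adjusted p = 0.0601).

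CASP8, the main initiator of the death-receptor complex, had the smallest range of group means among the 8. Its level was at 51.8, 52.0 and 58.3 CPM in untreated cells, 59.4, 55.4 and 58.8 with TNF-α, 49.3, 54.5 and 51.6 with MCL, 55.7, 53.0 and 52.5 with ruxolitinib, and 51.6, 54.5 and 54.6 with both drugs. The group means of CASP8 spanned 0.16 log2 units, and 7.86% of tested genes had a smaller span. TNF-α left it at a log2 change of 0.10 (adjusted p = 0.21), with a 95% interval from -0.01 to 0.21. Against TNF-α it was lower with MCL by -0.16 ± 0.06 (adjusted p = 0.0277). That call was lost with library totals (adjusted p = 0.084), without a count filter (0.106), with DESeq2 (0.0672), and without TNF-α replicate 1 (0.119) or 3 (0.103) or MCL replicate 1 (0.181) or 3 (0.0728).

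FADD, the adaptor that links the receptors to both caspases, had the widest range. Its values were 21.4, 20.4 and 20.1 CPM in untreated cells, 18.1, 15.3 and 18.3 with TNF-α, 15.5, 15.8 and 16.1 with MCL, and 17.2, 16.2 and 16.7 with ruxolitinib. With both drugs they were 8.63, 7.42 and 8.57 CPM, below every other library. Relative to TNF-α the pair lowered FADD by 52.3% (log2 change -1.07 ± 0.10, adjusted p = 6.27e-14), while MCL alone (-0.13, adjusted p = 0.368) and ruxolitinib alone (-0.05, adjusted p = 0.824) did not pass; the 95% intervals of the single drugs reached from -0.32 to 0.07 and from -0.23 to 0.14. FADD was also lower with TNF-α than in untreated cells by -0.26 ± 0.09 (adjusted p = 0.0262), a call lost without untreated replicate 1 (-0.25, adjusted p = 0.0761) or TNF-α replicate 2 (-0.19, adjusted p = 0.201). Group means of FADD spanned 1.32 log2 units, more than in 88.2% of tested genes. On the scale per kilobase, FADD went from the second highest of the 8 genes in untreated cells to the sixth with both drugs, at 4.46 ± 0.37 CPM per kb.

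**Figure D2:**
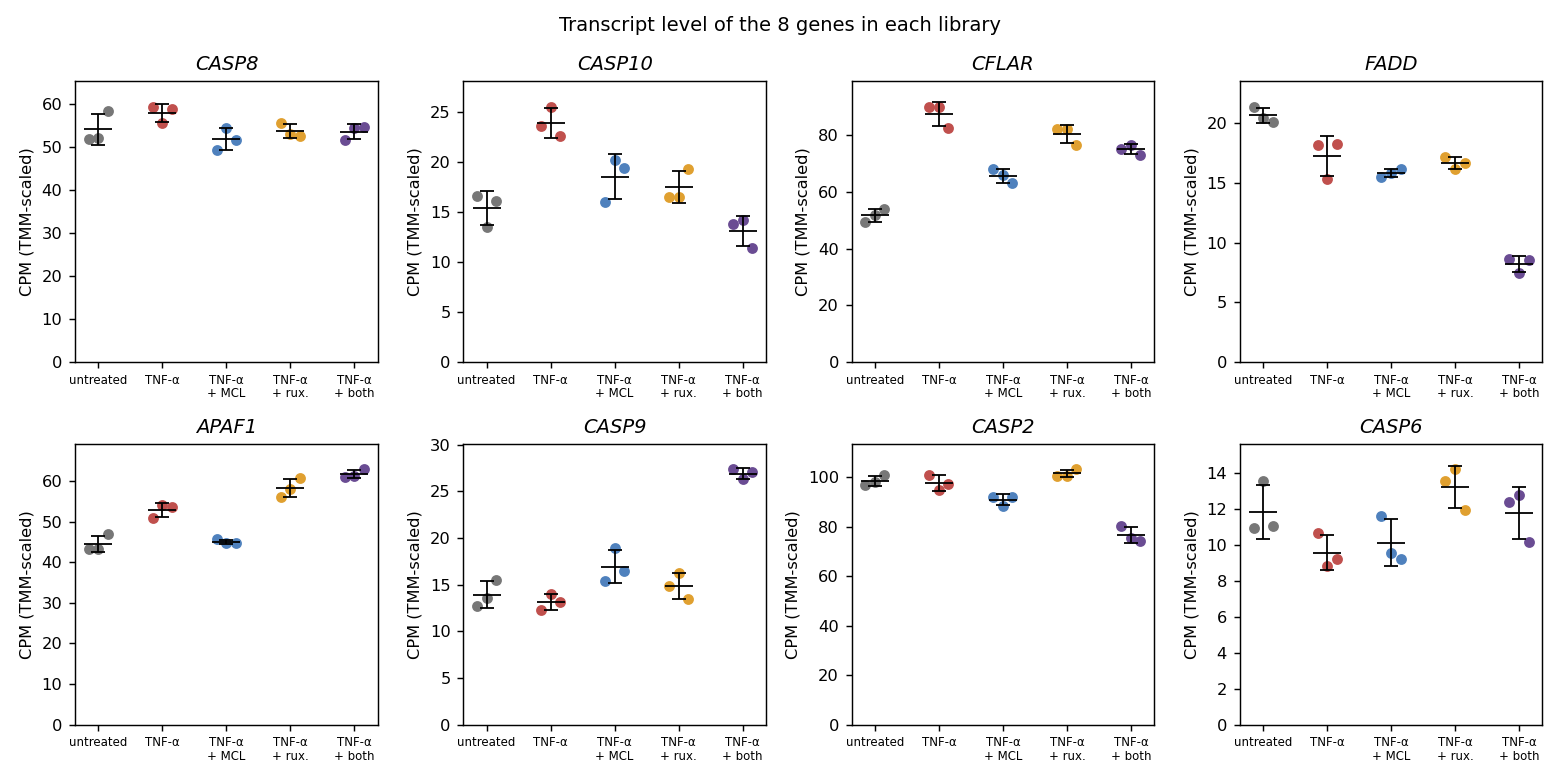
TMM-scaled CPM (y axis, from 0) of each gene in each library, by group (x axis); points are libraries, the long bar is the mean and the whiskers are 1 SD (n = 3). FADD with both drugs, at 7.42 to 8.63 CPM, and CASP9 with both drugs, at 26.3 to 27.4 CPM, stand clear of every other library of those genes.

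APAF1, the scaffold of the apoptosome, was at 43.3, 43.2 and 46.9 CPM in untreated cells and rose to 50.8, 54.0 and 53.6 CPM with TNF-α (log2 change 0.25 ± 0.06, adjusted p = 0.000326). MCL and ruxolitinib left APAF1 on opposite sides of its TNF-α level. MCL brought it to 45.6, 44.7 and 44.8 CPM, lower than TNF-α without overlap (-0.23 ± 0.06, adjusted p = 0.00111) and 0.02 from untreated cells (adjusted p = 0.842). Ruxolitinib gave 56.1, 58.0 and 60.7 CPM, all above TNF-α, with a log2 change of 0.14 and an adjusted p of 0.0681 that did not pass; scaling by library totals (adjusted p = 0.0285) or by the size factors of DESeq2 (0.0398), testing with DESeq2 (0.0486), or fitting these groups alone (0.0467) brought it past the threshold. Set against each other, APAF1 was lower with MCL than with ruxolitinib by -0.37 ± 0.06 (adjusted p = 1.59e-07). With both drugs it was highest, at 61.1, 61.1 and 62.9 CPM (0.22 ± 0.05 against TNF-α, adjusted p = 3e-04). Its difference from ruxolitinib alone did not pass (0.08, adjusted p = 0.192), except with library totals (0.14, adjusted p = 0.0272).

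CASP9, the protease activated on the APAF1 scaffold, did not pass with TNF-α: its values were 12.7, 13.6 and 15.5 CPM in untreated cells and 12.3, 14.0 and 13.1 CPM with TNF-α (log2 change -0.08, adjusted p = 0.632). With MCL it was at 15.4, 18.9 and 16.4 CPM, above each TNF-α library (0.36 ± 0.10, adjusted p = 0.00451), a call that was lost without MCL replicate 2 (0.28, adjusted p = 0.06). Ruxolitinib gave 14.8, 16.2 and 13.5 CPM and did not pass (0.17, adjusted p = 0.294). With both drugs CASP9 was at 27.4, 26.3 and 27.1 CPM, a 2.04-fold rise over TNF-α (1.03 ± 0.09, adjusted p = 1.04e-14). Those 3 libraries were above every library of the other groups. The antisense neighbour CELA2B, which shares 106 exonic bases, held 19 counts in all libraries against 4327 for CASP9. Here too, the counts do not show how reads over the shared bases were assigned.

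CASP2, the initiator outside both arms, lay close together in untreated cells (96.8, 98.2 and 100.9 CPM), with TNF-α (101.0, 95.02 and 97.2 CPM) and with ruxolitinib (100.7, 100.7 and 103.3 CPM). MCL put it at 92.2, 88.3 and 92.3 CPM, below the TNF-α libraries, but the change did not pass (-0.10, adjusted p = 0.0765). With both drugs it fell to 80.2, 75.3 and 74.3 CPM, the lowest of any group (-0.35 ± 0.04, adjusted p = 5.45e-10). The values of CASP6, the executioner of the set, were 10.9, 13.6 and 11.0 CPM in untreated cells, 10.7, 8.83 and 9.19 with TNF-α, 11.6, 9.53 and 9.21 with MCL, 13.5, 14.2 and 11.9 with ruxolitinib, and 12.4, 12.8 and 10.1 with both drugs. The rise of CASP6 with ruxolitinib (0.47 ± 0.12, adjusted p = 0.00331) had no overlap with TNF-α.

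The other CASP6 calls against TNF-α or untreated cells lay near the threshold. Its fall with TNF-α (-0.31 ± 0.12, adjusted p = 0.0485) did not pass with DESeq2 (-0.33, adjusted p = 0.0628) or without untreated replicate 2 (-0.205, adjusted p = 0.309), TNF-α replicate 2 (-0.26, 0.179) or TNF-α replicate 3 (-0.29, 0.127). The rise with both drugs (0.30 ± 0.12, adjusted p = 0.03) did not pass without TNF-α replicate 2 (0.25, adjusted p = 0.122) or 3 (0.28, 0.0862) or combination replicate 1 (0.27, 0.0921) or 2 (0.24, 0.132). Without TNF-α replicate 2 the count of genes that passed against untreated cells was 3 in place of 5, and without MCL replicate 1 the count for MCL against TNF-α was 3 in place of 5.

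In each gene the group means can be put in order, with edgeR's test between neighbours. For CFLAR the order from high to low was TNF-α, ruxolitinib, both drugs, MCL and untreated; the last 2 steps passed and the first 2 did not (adjusted p = 0.0707 and 0.0928), although without ruxolitinib replicate 3 the second did (-0.13, adjusted p = 0.0355). FADD went from untreated to TNF-α, ruxolitinib, MCL and both drugs, with the first and last steps passing and the 2 between not (0.824 and 0.605). CASP9 had 1 step that passed, between both drugs and MCL (adjusted p = 7.86e-09), and CASP2 had 1, between MCL and both drugs (adjusted p = 5.11e-06). In CASP10 the step from TNF-α to MCL passed and in APAF1 that from TNF-α to MCL (0.00229 and 0.00111), while none of the 4 steps passed in CASP8 (adjusted p = 0.21 to 0.966) or CASP6 (0.151 to 0.947). The CASP6 step from both drugs to MCL passed without combination replicate 3 (0.31, adjusted p = 0.0495).

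If the drugs acted additively on the log2 scale, the change with the pair would equal the MCL change plus the ruxolitinib change, each against TNF-α; the deviation from that sum is the non-additive effect. For 5 of the 8 genes this effect passed, 3 upward and 2 downward, in a contrast where 25.0% of all genes passed. FADD deviated most: the single changes summed to -0.17, the pair gave -1.07, and the non-additive effect was -0.90 ± 0.14 (adjusted p = 7.11e-07). CASP9 had a sum of 0.53 and a pair value of 1.03 (0.50 ± 0.14, adjusted p = 0.00386), and CASP2 a sum of -0.05 and a pair value of -0.35 (-0.30 ± 0.06, adjusted p = 0.000116). In CFLAR the pair lowered the transcript less than the sum (-0.22 against -0.54, effect 0.32 ± 0.07, adjusted p = 0.000316). For APAF1 the sum was -0.09 and the pair gave 0.22 (effect 0.31 ± 0.08, adjusted p = 0.00132). CASP10 stood close to additivity, with a sum of -0.82 and a pair value of -0.87 (effect -0.05 ± 0.14, adjusted p = 0.856, 95% interval -0.33 to 0.24). CASP6 and CASP8 did not pass (adjusted p = 0.302 and 0.15). The drug pair was also the group with the lowest summed haematopoietic markers, as given above, and the lowest mitochondrial share of counts (4.30% ± 0.143, against 5.12% ± 0.151 with TNF-α, 4.55% ± 0.217 with MCL and 5.49% ± 0.0474 with ruxolitinib), and their part in these changes was not tested.

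**Figure D3:**
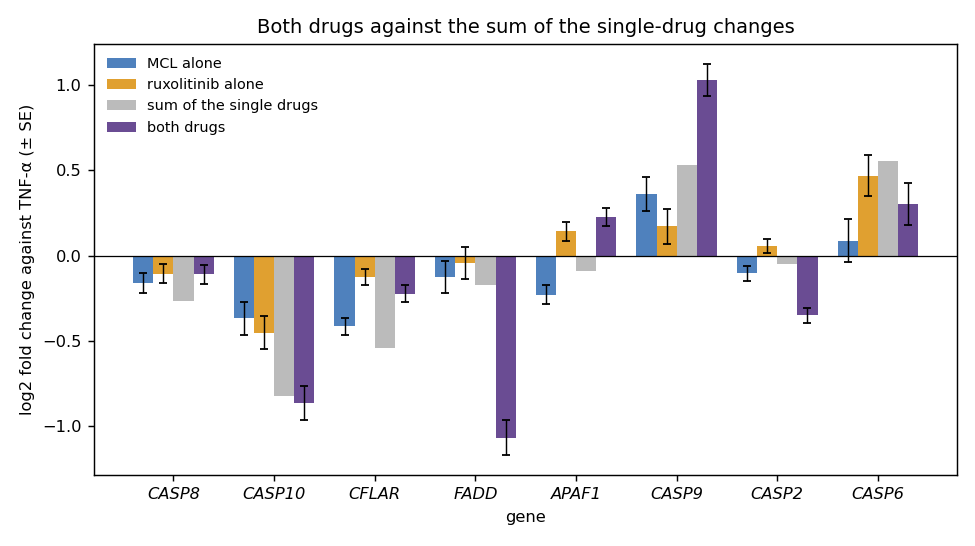
Log2 fold change against TNF-α (y axis; whiskers are standard errors) of each gene (x axis) in the 3 drug groups, beside the sum of the single-drug changes (grey, drawn without error). The purple bar of FADD reaches -1.07 where the grey bar is at -0.17, and in CASP10 both bars end close together.

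Because cFLIP, caspase-8 and caspase-10 enter the same complex, their count ratios within a library were compared, a measure that needs no scaling between libraries but does not correct for gene length. CFLAR stood to CASP8 as 0.954, 1 and 0.924 in the untreated libraries and as 1.52, 1.62 and 1.41 with TNF-α, a log2 difference of 0.66. The groups did not overlap (exact two-sided permutation test, p = 0.1, the smallest that 3 against 3 libraries allow). The ratio averaged 1.4 ± 0.0591 (SD, n = 3) for the drug pair, 1.495 ± 0.0473 for ruxolitinib and 1.27 ± 0.0939 for MCL, all above the untreated range. CASP10 to CASP8 went from 0.2855 ± 0.0312 to 0.415 ± 0.041 with TNF-α (log2 difference 0.54, exact permutation p = 0.1), and was 0.246 ± 0.0317 with both drugs. CFLAR to CASP10 differed little between untreated cells and TNF-α (3.39 ± 0.438 and 3.66 ± 0.146, exact permutation p = 0.5) and was highest with both drugs at 5.76 ± 0.566. The 3 comparisons gave Benjamini-Hochberg adjusted values of 0.15 for CFLAR to CASP8 and for CASP10 to CASP8, and 0.5 for CFLAR to CASP10.

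**Figure D4:**
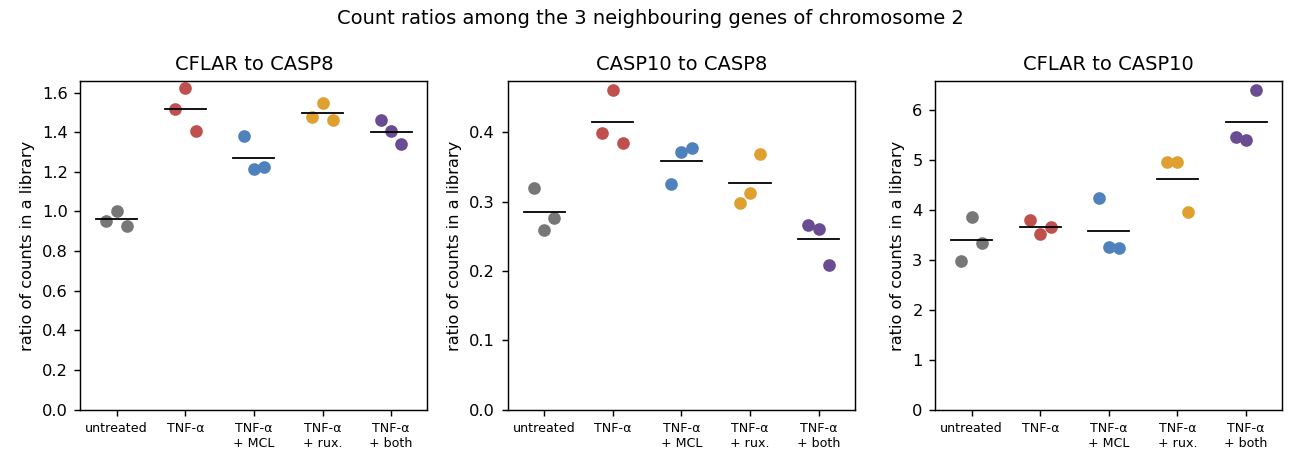
Ratio of read counts within a library (y axis, from 0) for 3 gene pairs, by group (x axis); points are libraries and bars are means. For CFLAR to CASP8 the untreated libraries, at 0.924 to 1, lie below the other 12, and for CFLAR to CASP10 the 3 libraries with both drugs, at 5.4 to 6.41, lie above the other 12.

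For the 4 members whose group means spanned at least 0.5 log2 units, the genes with the most similar pattern were sought among 9928 other protein-coding genes with a mean of at least 5 CPM, by the root mean square distance of centred log2 CPM over the 5 groups. The nearest to FADD were HOXA9 (0.05), NAB2 (0.07) and GNB1L (0.09). CASP9 was nearest to CLCN3, PLCB1 and RNF13 (0.04 each), CASP10 to TENT5A (0.05), PHF20 and FCGR2A (0.08 each), and CFLAR to PPARD, SPPL2A (0.07 each) and CEP135 (0.08). These distances rest on 5 means of the same 15 libraries and are descriptions.

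The other genes of the pathway were counted by list, beside medians over all genes that lay between -0.03 and 0.00 and shares of all genes that passed of 26.6% (TNF-α), 26.0% (MCL), 15.7% (ruxolitinib) and 54.8% (the pair). The lists, like the 8 genes, were chosen with earlier results of these data known, so these shares are background and not a test. The list of death receptors and ligands was wide, and also held TNFRSF1B and the decoy receptor genes TNFRSF10C and TNFRSF10D. Of its 10 tested genes, 6 rose and 2 fell with TNF-α (median log2 change 0.30). With MCL 1 rose and 7 fell (median -0.77), with ruxolitinib 5 fell (-0.15), and with both drugs 1 rose and 8 fell (-1.15). The gene that rose was TNFRSF1A, by 0.18 with MCL (adjusted p = 0.000159) and 0.22 with both drugs (adjusted p = 1.42e-06). It is named after its values were seen. TNFSF10, the gene of the death ligand TRAIL, went from 1.158 ± 0.474 CPM in untreated cells to 7.41 ± 0.823 with TNF-α, then to 2.69 ± 0.905 when MCL followed, 2.34 ± 0.393 when ruxolitinib followed and 0.464 ± 0.2195 after the pair (log2 change of the pair -3.97 ± 0.29, adjusted p = 2.55e-18). The decoy receptor gene TNFRSF10D fell by 1.05 with MCL (adjusted p = 1.55e-13). The cytokine gene TNF fell from 54.0 ± 1.66 to 3.5 ± 0.486 CPM with both drugs (log2 change -3.95 ± 0.09, adjusted p = 3.6e-43).

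Of 17 genes of the TNF receptor complex and necroptosis, 8 rose with TNF-α (median log2 change 0.19), 2 rose and 6 fell with MCL (-0.08), 2 rose and 4 fell with ruxolitinib (0.03), and 6 rose and 6 fell with both drugs (0.01). MLKL, the pore-forming effector of necroptosis, fell by 0.45 with MCL (adjusted p = 3.26e-06), 0.57 with ruxolitinib (adjusted p = 3.11e-08) and 1.44 with both (adjusted p = 3.72e-23). Of 15 genes of the mitochondrial arm, 6 rose and 1 fell with TNF-α (median log2 change 0.10), 1 rose and 4 fell with MCL (-0.07), 3 rose and 6 fell with ruxolitinib (-0.03), and 3 rose and 8 fell with both drugs (-0.15). PMAIP1, the pro-apoptotic gene of NOXA, rose by 1.12 with MCL and by 2.07 with both drugs (adjusted p = 4.45e-28 and 5.84e-44), while BCL2A1, an anti-apoptotic relative of BCL2, fell by 1.04 and 2.48 (adjusted p = 7.84e-10 and 5.9e-23). With the drug pair, pro-apoptotic genes were found among those that rose and those that fell. The other 2 that rose were the pro-apoptotic BBC3 (0.48) and BCL2L11 (0.47). Those that fell beside BCL2A1 were the pro-apoptotic BMF (-0.97), BID (-0.66) and BAK1 (-0.21), the mitochondrial proteins HTRA2 (-0.44) and CYCS (-0.15), and the anti-apoptotic BCL2L1 (-1.36) and MCL1 (-0.15). These 9 genes are named after their values were seen.

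CASP4, an inflammatory caspase outside the 8 genes, was at a log2 change of 0.17 with MCL (adjusted p = 0.0518) and fell by 0.18 with ruxolitinib (adjusted p = 0.048). Both drugs raised CASP4 by 0.46 ± 0.06 (adjusted p = 5.83e-09), from 32.6 ± 1.84 to 44.7 ± 1.43 CPM. Of 8 caspase adaptor and inflammasome genes, 2 rose and 1 fell with TNF-α (median log2 change 0.03, beside 26.6% of all genes passing), 5 fell with MCL (-0.17, beside 26.0%), 2 fell with ruxolitinib (0.00, beside 15.7%), and 2 rose and 4 fell with both drugs (-0.26, beside 54.8%); CRADD, the adaptor of the caspase-2 complex, rose by 0.81 ± 0.13 with both drugs (adjusted p = 5.07e-07), where CASP2 itself fell. Of 14 caspase substrates and inhibitors, 3 rose and 2 fell with TNF-α (median log2 change 0.00, beside 26.6% of all genes passing), 2 rose and 2 fell with MCL (-0.04, beside 26.0%), 2 rose and 3 fell with ruxolitinib (-0.00, beside 15.7%), and 3 rose and 7 fell with both drugs (-0.09, beside 54.8%). DEDD2, which encodes a death effector domain protein, rose by 0.56 with MCL and by 1.48 with both drugs (adjusted p = 5.98e-12 and 1.02e-32), and the channel gene PANX1, a caspase substrate, fell by 0.86 with both drugs (adjusted p = 4.19e-14).

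Against untreated cells, MCL left 5 of the 8 genes changed (3 higher and 2 lower, beside 34.1% of all genes, with 17.2% higher and 16.9% lower), ruxolitinib 3 (2 higher and 1 lower, beside 36.8%, with 17.8% higher and 19.0% lower) and both drugs 5 (3 higher and 2 lower, beside 57.4%, with 28.3% higher and 29.1% lower). CFLAR was higher and FADD lower than untreated in all 3 groups, FADD by -0.39 ± 0.09 with MCL (adjusted p = 0.00057), -0.31 ± 0.09 with ruxolitinib (adjusted p = 0.00528) and -1.33 ± 0.10 with both (adjusted p = 3.32e-18). Between the single drugs 4 genes differed, beside 27.5% of all genes: CFLAR (-0.29), APAF1 (-0.37), CASP2 (-0.16) and CASP6 (-0.38) were lower with MCL. The CASP6 difference (adjusted p = 0.0112) was lost without MCL replicate 2 (0.0551), MCL replicate 3 (0.0753) or ruxolitinib replicate 2 (0.0649). Adding ruxolitinib to MCL changed 6 genes (beside 41.6% of all genes, 19.6% higher and 22.0% lower), with CASP9, APAF1 and CFLAR higher and FADD, CASP10 and CASP2 lower. Adding MCL to ruxolitinib changed 4 (beside 51.7%, with 24.8% higher and 26.8% lower), with CASP9 higher and FADD, CASP2 and CASP10 lower. For MCL against untreated cells the counts were 3 without untreated replicate 1 and 2 without untreated replicate 2 or MCL replicate 2. The CASP2 call (-0.12, adjusted p = 0.0323) was lost without untreated replicate 1 (0.0525), 2 (0.0563) or 3 (0.127) or MCL replicate 2 (0.131), and without a count filter (0.0669). The CASP9 call (0.28, adjusted p = 0.0222) was lost without untreated replicate 1 (0.117) or 2 (0.0711) or MCL replicate 2 (0.185). The CASP10 call (0.27, adjusted p = 0.0306) was lost without untreated replicate 2 (0.227), MCL replicate 2 (0.168) or MCL replicate 3 (0.113), and with DESeq2 (0.0604).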

How the data were processed

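The count table deposited by the authors holds raw read counts per gene for 15 RNA-seq libraries, with gene lengths. The submitters' processing notes list, with no role or order, DESeq2 1.16.1, featureCounts 1.5.0-p3, HISAT2 2.0.5, mm10 and hg38. The table's gene coordinates matched GENCODE 29 on hg38 for 58735 of 58735 genes. The sources used here do not state strand or multi-mapping settings. Columns headed control were taken as the untreated samples.

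Genes were filtered with filterByExpr (minimum count 10), scaled by TMM and fitted with edgeR 4.0.16 (R 4.3.3, limma 3.58.1; robust quasi-likelihood) over 5 groups, which share 1 estimate of spread. Benjamini-Hochberg adjustment ran over 16146 genes, with a threshold of 0.05. The procedure was run on simulated counts drawn from the fitted spread, with changes placed in the TNF-α group only. That run cannot show how calls hold where many genes change, as with both drugs. Alternatives were DESeq2 1.42.0 (as a test, and its size factors in edgeR), library totals, no filter, a fit of the compared groups only and a replicate block. Each library of the compared groups was also left out in turn.

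All 8 members are named, and per list and comparison up to 2 passing genes with the largest change and at least 5 CPM; some of these are left unprinted. The list of other caspases is not reported here, apart from CASP4. Members and lists were chosen with earlier results of these data known.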

Additional observations from a re-analysis of the deposited data

Results flagged for a closer look

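In 5 of the 8 genes what MCL did to the transcript with ruxolitinib present differed from what it did without. This is the interaction term of the edgeR fit, on the log2 scale in TNF-α stimulated cells with 3 libraries per group. It is the same contrast as the non-additive effect given above, and not a second result. Of all tested genes 25.0% passed in it. FADD had the largest difference, -0.898 (adjusted p = 7.11e-07). CASP9 differed by 0.501 (adjusted p = 0.00386), CFLAR by 0.318 (adjusted p = 0.000316) and APAF1 by 0.313 (adjusted p = 0.00132). CASP2 differed by -0.303 (adjusted p = 0.000116). All 5 calls were kept when any single one of the 12 libraries of this contrast was left out. The effect of leaving out an untreated library was not examined for it. Groups of 3 libraries are too small for a test of single outlying samples.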

How the results depend on the processing

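No change in the 8 genes that passed reversed under the alternatives tried; sign changes occurred in changes that did not pass, such as CASP6 with MCL, at -0.02 without MCL replicate 1. Of 88 results, 1 per gene and contrast, the side of the threshold was kept in 84 with DESeq2, 87 with DESeq2 size factors, 85 with library totals, 86 without a filter and 87 in fits of the compared groups only; leaving out single libraries kept it in 543 of 576. Left-out libraries moved the count of genes that passed between 3 and 5 for TNF-α against untreated, 3 and 5 for MCL against TNF-α, 2 and 5 for MCL against untreated and 2 and 3 for ruxolitinib against TNF-α. Over all genes, library totals in place of TMM moved the share of higher calls from 53% to 42.4% for TNF-α, 41.8% to 53.7% for MCL, 32.8% to 45.4% for ruxolitinib and 46.5% to 56.6% for both drugs.

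Replicate numbers are not shown to pair libraries: over 30 pairs of same-numbered libraries from different groups the correlation of deviations ran from -0.0483 to 0.0483, and 7 of 15 libraries correlated best with their own number. With the number as a replicate block all 88 results kept their side, and 5, 5, 2 and 7 genes passed for TNF-α, MCL, ruxolitinib and both drugs. Log2 differences of the count ratios were then 0.658 (CFLAR to CASP8), 0.54 (CASP10 to CASP8) and 0.118 (CFLAR to CASP10). They equal the values without the block by construction, since a mean of paired differences is the difference of the means. Exact sign flips of the differences between same-numbered libraries gave p = 0.25, 0.25 and 0.75. The smallest p that these sign flips allow is 0.25, so both ratios to CASP8 stood at that floor. Their higher p-values therefore do not show a weaker difference.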
